A study of Drosophila melanogaster with 8 samples.

Results

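Mitochondrial ribosomal proteins are encoded by nuclear genes, made in the cytosol and imported into mitochondria, where they assemble with ribosomal RNAs of the mitochondrial genome. The resulting mitoribosome has a large and a small subunit and translates the few mitochondrially encoded messages, all for subunits of the respiratory chain and ATP synthase in animals. Some of its proteins have bacterial counterparts and others are found only in mitochondria. The genes were taken as every gene whose symbol in the count files starts with mRpL or mRpS followed by a digit. This gave 73 of the 17411 genes in the files, 47 named for the large subunit and 26 for the small. All 73 symbols matched the symbol of a FlyBase identifier in a later annotation. The genes were spread over the genome, with 12 on 2L, 12 on 2R, 17 on 3L, 21 on 3R and 11 on X.

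RNA was sequenced from the cuticle with attached fat body of Drosophila melanogaster females aged 1 week. Controls (n = 4 libraries) had genotype yolk-Gal4/w1118, and the group that expressed a hairpin against 9G8, here called RNAi (9G8 RNAi in the plots, n = 4), had genotype yolk-Gal4>9G8RNAi. All flies thus carried yolk-Gal4, a driver of adult female fat body, and controls carried no hairpin, so a hairpin effect and a difference of strain background cannot be told apart. The 9G8 protein is an SR protein, a class of serine- and arginine-rich splicing factors, encoded by x16. The comparison asks whether transcript levels differ when 9G8 is targeted in fat body.

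The libraries held 25396063 to 36181492 counts, of which the 73 genes took 76176 to 159404 per library. Levels are CPM, counts scaled to a common library total, after scaling libraries by TMM factors, a trimmed mean of gene ratios. The x16 transcript itself was at 149.2 ± 124.0 CPM (SD, n = 4) in controls and 96.5 ± 74.1 CPM in RNAi libraries (edgeR adjusted p = 0.862 for a log2 fold change of -0.63), so a lower target level was not detectable. Its direction turned with 1 library, to 0.10 without control 3, and the estimate was -1.20 without RNAi 1. Of 10 fat body markers the yolk protein genes and apolpp (Rfabg in the files) were abundant in every library, while the larval markers Fbp1 and Fbp2 were near 0. The summed level of 14 germline markers ran from 25.9 to 803 CPM in control libraries and from 160.0 to 701 CPM in RNAi libraries. That of 8 gut markers was 192 CPM in control 3 and 6516 to 18570 CPM in the other controls. In RNAi libraries that of the gut markers was 13910 to 36910 CPM (median log2 fold change of the 8 genes 1.22, 0 called). That of 12 muscle markers was 1112 to 2576 CPM in control libraries and 1048 to 2319 CPM in RNAi libraries. Summed hemocyte markers (2 of 6 called lower) were at 101.6 to 269 CPM and 61.0 to 108.9 CPM in control libraries and RNAi, eggshell markers at 15.1 to 8556 and 40.7 to 8340 CPM, and fat body markers at 6771 to 10760 and 12130 to 20800 CPM. The fat body sum is mostly yolk protein genes, and of 8 tested markers 1 was called higher and 1 lower. Lsp2 was at 28.4 to 96.6 CPM and 4.06 to 16.2 CPM, and the mean log2 score of the list was 8.64 ± 0.42 and 8.79 ± 0.46. The part of these cell types in the results was not tested. In such mixed tissue, fewer cells of a type and less RNA per cell cannot be told apart. RNAi 2 stood apart with a TMM factor of 1.54, against 0.758 to 1.201 in the others, and some results are also given without it.

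No mitochondrial ribosomal protein gene passed the test between the genotypes. Of the 73, 72 had enough counts to be tested, and 0 passed an adjusted p of 0.05 (quasi-likelihood test of edgeR, over all 9846 tested genes). Over all tested genes 3.21% passed, 0.995% as higher and 2.21% as lower in RNAi. At an unadjusted p under 0.05 there were 3 of the 72, mRpL36, mRpL28 and mRpL37, against 12.9% of all tested genes. DESeq2 and limma-voom also called 0 of the 72. The genotypes did not overlap for 1 gene, mRpL36, which was lower in RNAi in every library. Over all tested genes 8.73% had groups apart, 5.78% lower and 2.96% higher.

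The estimates lay close to 0. The median log2 fold change (RNAi over control) was 0.04 over the 72 genes, with quartiles of -0.12 and 0.14, and 0.01 over all tested genes, with quartiles of -0.33 and 0.35. There were 42 values above 0 and 30 below. For 67 of the 72 genes (93.1%) the log2 fold change was under 0.5 in size, against 66.3% of all tested genes. The share was near this for nuclear-encoded oxidative phosphorylation genes (90.1%) and cytosolic ribosomal protein genes (87.4%). It was 62.5% for mitochondrial aminoacyl-tRNA synthetase genes. A p that misses the threshold does not show that a level was unaltered, so the intervals matter. For 54 of the 72 genes the 95% interval lay within a 2-fold change either way, against 21.5% of all tested genes. The standard errors were alike, from 0.31 to 0.54 with a median of 0.34, against a median of 0.42 over all tested genes. The shares over the 72 genes and over all tested genes thus rest on unlike precision. The 72 genes also share the shifts of their libraries, so these shares do not show an unusual stability of the family. For mRpS21, with an estimate of 0.00, the interval ran from 0.592-fold to 1.69-fold.

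**Figure D1:**
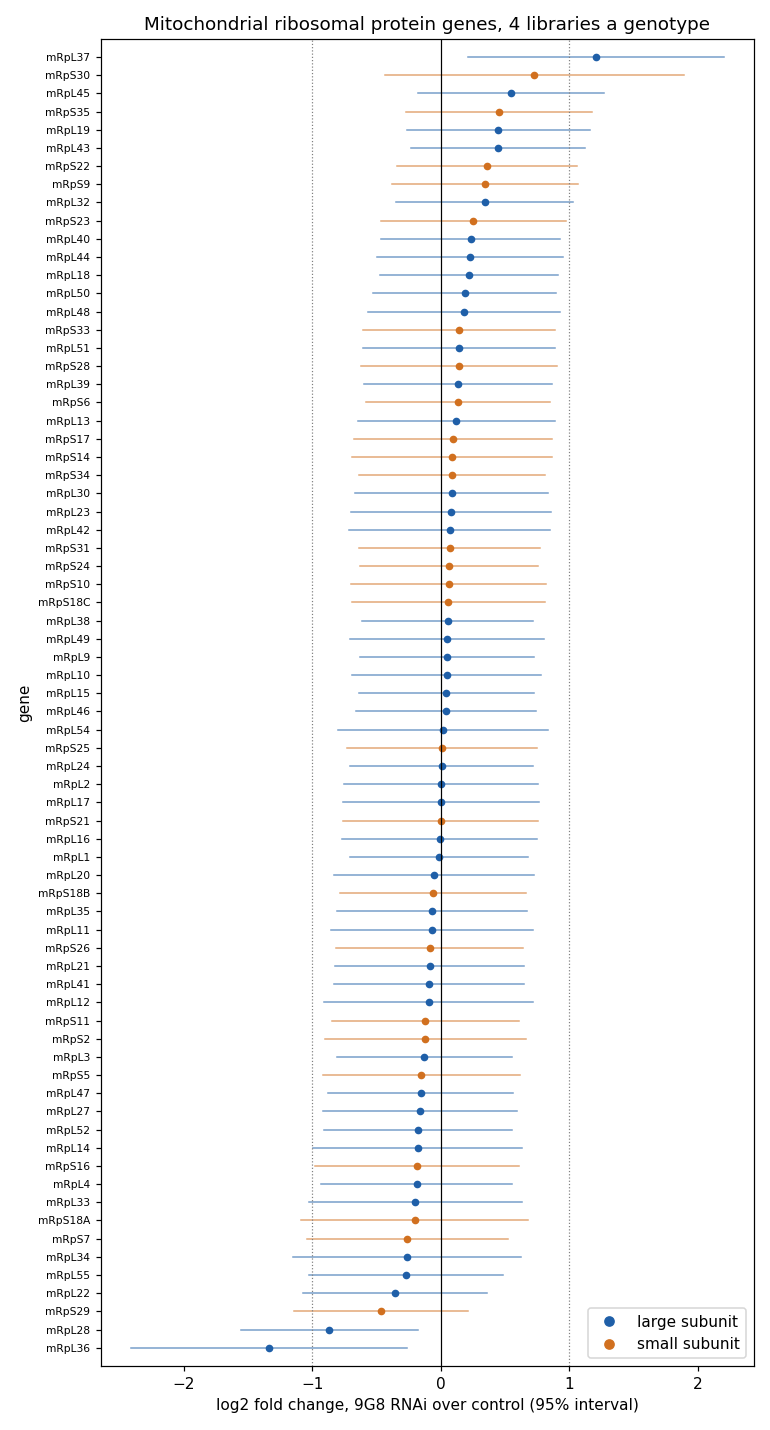
Log2 fold change of each of the 72 tested genes (points) with its 95% interval (lines), RNAi over control, n = 4 libraries a genotype, coloured by the subunit in the gene's name. Dotted lines mark 2-fold changes. Most points lie within 0.5 of 0, with mRpL36 and mRpL28 lowest and mRpL37 highest.

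Grouped by the subunit in their names, the genes gave like values. The 46 tested large-subunit genes had a median log2 fold change of 0.01 (range -1.34 to 1.21), and the 26 small-subunit genes 0.06 (range -0.47 to 0.73). The names do not always give the place: the human counterparts of mRpS30, at 0.73, and of mRpS18A lie in the large subunit. The median level per kilobase of exon was 66.2 ± 10.8 CPM for the large and 62.2 ± 12.4 CPM for the small subunit in controls (n = 4). In RNAi it was 61.7 ± 18.8 and 59.9 ± 19.3 CPM. The ratio of large to small was 1.07 ± 0.07 in controls and 1.04 ± 0.11 in RNAi, a difference smaller than the spread between libraries. By chromosome arm the median log2 fold change ran from -0.03 on 2L to 0.06 on 3R.

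Levels differed widely among the genes. Per kilobase of exon, the mean level in controls ran from 1.92 CPM for mRpS30 to 499.9 CPM for mRpL36, a 260.0-fold range. The quartiles were 29.9 and 85.7 CPM, and 47 of the 72 genes lay within 2-fold of the median of 66.7 CPM. The order was nearly the same in RNAi (Spearman rho 0.98 across the 72 genes, which share their lengths and counting in both groups). Longer genes had lower levels per kilobase (rho -0.61 between exonic length and the control level, across genes). Length is also the divisor of that level, so a negative rho can arise even where counts do not depend on length. The exonic length ran from 327 to 2078 bases.

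At the top stood mRpL36, the counterpart of a small zinc-binding protein of the bacterial large subunit. It was 2.59 times the next gene, mRpL12, per kilobase in controls (499.9 ± 199.0 against 192.7 ± 55.4 CPM), and was highest in all 4 control libraries. In RNAi it ranked 4, 3, 2 and 1 in libraries 1 to 4. Next came mRpL12 and then mRpS21 (138.0 ± 11.3 CPM) and mRpL30 (134.3 ± 24.2 CPM), proteins with bacterial counterparts. The values of mRpL12, 146.9 to 272.2 CPM per kilobase, overlapped those of mRpS21, 130.8 to 154.6, and of mRpL30, 107.2 to 164.4. Such ranges ignore that the genes share libraries, and within each control library mRpL12 lay above both mRpS21 and mRpL30. Between mRpS21 and mRpL30 the order changed with the library. At 394.6 CPM per kilobase or more, mRpL36 lay above all of them in controls. At the bottom were mRpS30 (1.92 ± 1.24 CPM per kilobase) and mRpL37 (2.07 ± 0.57), which overlapped each other. The next, mRpL19 (9.29 ± 2.56) and mRpS9 (9.86 ± 3.19), overlapped each other too and lay above both.

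**Figure D2:**
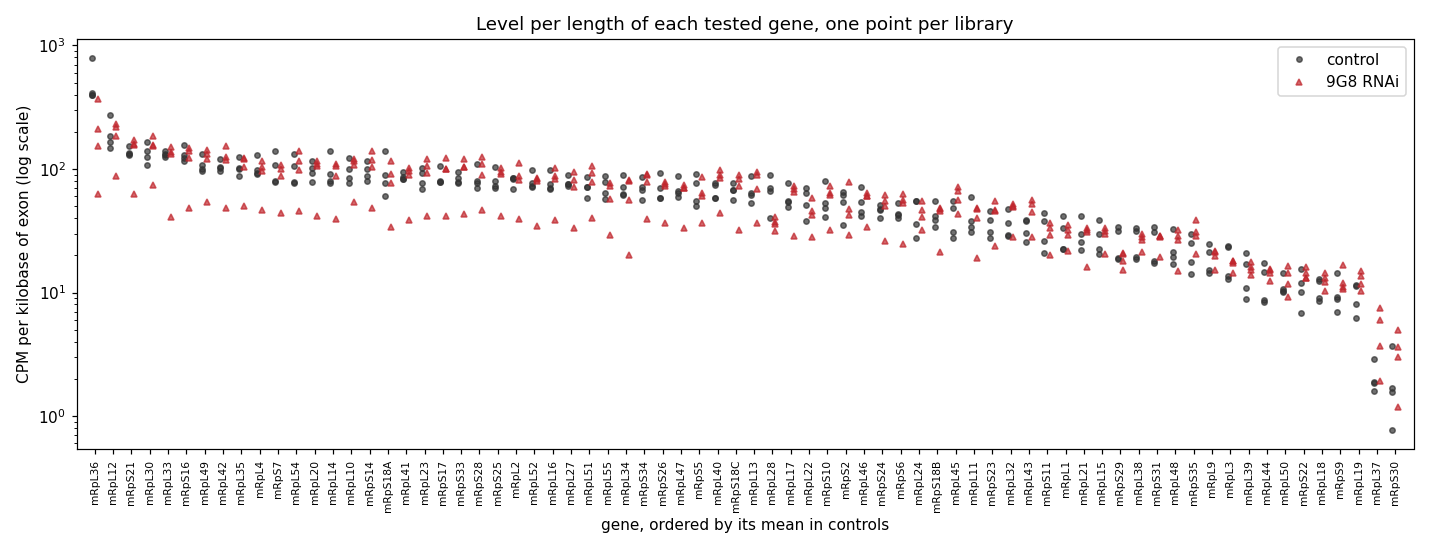
CPM per kilobase of exon (log scale) for the 72 tested genes, ordered by their mean in controls, with one point for each control (dots) and RNAi (triangles) library. The order is led by mRpL36 and ends with mRpL37 and mRpS30.

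The gene at 0 was mRpL53 (2R, 13954195 to 13955664, plus strand, BDGP6), the untested member. It had 0 counts in all 8 libraries, and a count of 0 allows up to 0.156 CPM in the library where 1 count weighs most, by counting error only. All 829 of its exonic bases are also exonic in CG33155 on the same strand. How the counting treated reads shared by overlapping genes is not given in the sources used here, so this count does not measure its transcript. CG33155 was at 4.39 ± 1.22 CPM in control libraries and 1.48 ± 0.56 CPM in RNAi libraries (edgeR adjusted p = 0.0727 for a log2 fold change of -1.57), and its genotypes did not overlap. Same-strand exonic overlap also touched mRpL13, over 236 bases of CG10602, and mRpS14, over 30 bases of CG32533. With mRpL53 and mRpS14 among them, 42 genes shared exonic bases with a gene on the opposite strand, 51.5 bases in the median and at most 332, for mRpS24. Whether strand was used in counting is not given in the sources used here, so reads from those bases cannot be assigned to a gene with certainty. The 30 genes that shared no exonic base had a median log2 fold change of -0.07, and the 42 tested ones that did had 0.06, with 0 called in either set.

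The lowest estimate was that of mRpL36 (FBgn0042112, 3L, 8124584 to 8125132, minus strand, 495 exonic bases). Controls 1 to 4 were at 395, 196, 203 and 195 CPM. The RNAi libraries 1 to 4 were at 75.4, 31.2, 103.8 and 180.8 CPM. The groups were apart, but the highest RNAi value stood just under the lowest control, and control 1 stood far above every other library. The log2 fold change was -1.34 (SE 0.49, 95% interval -2.41 to -0.27, adjusted p = 0.221 by edgeR). Without control 1 it was -0.92 (adjusted p = 0.650 by edgeR), the smallest size in any setting run. Without RNAi 4 it was -1.82 (adjusted p = 0.0542), the smallest adjusted p of any of these genes in any setting run.

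The second lowest was mRpL28 (2L, 4973976 to 4975316, plus strand), the counterpart of a bacterial large-subunit protein. It was at 78.2, 103.8, 81.8 and 46.9 CPM in controls 1 to 4, and at 36.7, 43.5, 42.3 and 47.8 CPM in RNAi libraries 1 to 4. All RNAi values lay in a narrow band, which control 4 shared. The log2 fold change was -0.87 (SE 0.32, 95% interval -1.56 to -0.18, adjusted p = 0.216 by edgeR). It shares 17 exonic bases with Gmd on the opposite strand.

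The highest estimates belonged to mRpL37 and mRpS30. Both are known only from mitochondrial ribosomes, and in human the counterparts of both lie in the large subunit although mRpS30 is named for the small. The gene mRpL37 (3R, 10782563 to 10784092, minus strand) was at 2.57, 2.17, 2.52 and 3.94 CPM in controls 1 to 4 and at 8.05, 10.2, 4.99 and 2.60 CPM in RNAi libraries 1 to 4. The groups overlapped, with RNAi 4 within the range of the controls. The log2 fold change was 1.21 (SE 0.46, 95% interval 0.21 to 2.20, adjusted p = 0.242 by edgeR), 1.47 without RNAi 4 (adjusted p = 0.0615) and 0.86 without RNAi 2 (adjusted p = 0.543). For mRpS30 (X, 15786047 to 15788288, plus strand) controls were at 3.48, 1.59, 3.25 and 7.64 CPM and RNAi libraries at 7.50, 10.3, 6.23 and 2.44 CPM. The groups overlapped widely (log2 fold change 0.73, SE 0.54, adjusted p = 0.738 by edgeR). It was 1.24 without control 4, 0.47 without control 2 and 0.40 without RNAi 2. In both genes RNAi 2 was highest and RNAi 4 lowest of its group.

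**Figure D3:**
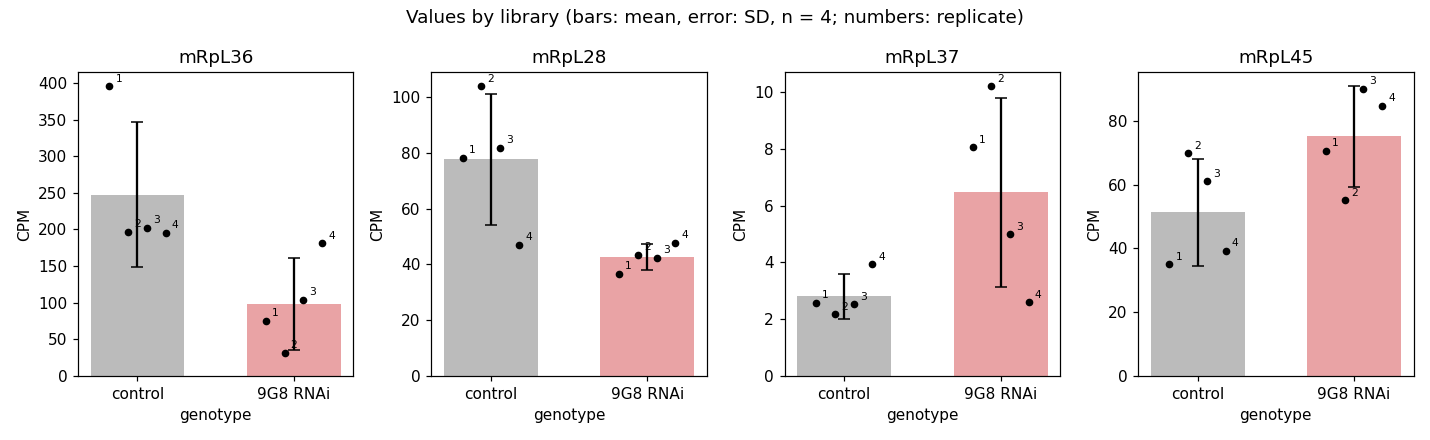
CPM of mRpL36, mRpL28, mRpL37 and mRpL45 by genotype, with bars for the mean, error bars for the SD (n = 4) and numbered points for the libraries. Each panel has its own axis from 0. The groups are apart for mRpL36, where control 1 is at 395 CPM, and overlap for the other genes.

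Genes of the ribosomal stalk, where translation factors bind, had estimates near 0. The stalk protein gene mRpL12 was at 142.2 ± 40.9 CPM in control libraries and 133.3 ± 48.2 CPM in RNAi libraries (log2 fold change -0.09, 95% interval -0.91 to 0.72). Those of its partners at the stalk base, mRpL10 (0.05) and mRpL11 (-0.07), gave like estimates. The 3 genes for conserved core proteins gave 0.00 for mRpL2, -0.13 for mRpL3 and -0.19 for mRpL4. Their levels per kilobase differed, with mRpL3 at 18.5 ± 5.99 CPM in controls against 80.0 ± 7.83 for mRpL2 and 103.0 ± 17.5 for mRpL4. The control values of mRpL3 lay below all those of the other two.

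Proteins around the tunnel by which the new chain leaves gave -0.36 for mRpL22 (-0.23 without RNAi 2, RNAi 1 or control 2), 0.08 for mRpL23 and 0.01 for mRpL24. The proteins mRpL44 and mRpL45 are additions of mitochondria, and human mRpL45 sits near the tunnel exit, where the ribosome meets the inner membrane. For mRpL45, controls 1 to 4 were at 35.02, 69.9, 61.1 and 39.3 CPM and RNAi 1 to 4 at 70.6, 55.04, 90.1 and 84.7 CPM. Its values in RNAi 1, 3 and 4 lay above every control, and RNAi 2 lay among the controls (log2 fold change 0.55, SE 0.33, 95% interval -0.17 to 1.27, adjusted p = 0.610 by edgeR). Over the alternative settings the estimate for mRpL45 ran from 0.42 to 0.77, and it was not called in any. For mRpL44 the log2 fold change was 0.23 (95% interval -0.50 to 0.96).

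Among small-subunit genes, mRpS5 (-0.15) and mRpS7 (-0.26) encode conserved proteins and were at 115.4 ± 32.5 and 92.9 ± 26.4 CPM in controls. The mitochondrial additions mRpS31 (0.07) and mRpS34 (0.09) had estimates near 0 too. The gene mRpS29 encodes a GTP-binding protein known in human as DAP3. It was at 26.7, 45.1, 48.8 and 27.5 CPM in controls 1 to 4 and at 30.01, 21.8, 25.7 and 29.8 CPM in RNAi libraries 1 to 4 (log2 fold change -0.47, SE 0.31, adjusted p = 0.680 by edgeR), and -0.30 without control 3. The groups overlapped. Of the other genes with larger estimates, mRpS35 was at 0.46 (95% interval -0.27 to 1.18), mRpL19 at 0.45 (-0.26 to 1.16) and mRpS9 at 0.35 (-0.38 to 1.07). Without RNAi 4 mRpS35 was at 0.30, and mRpS9 was at 0.15 without RNAi 2 and 0.59 without control 2. The gene mRpS9 shares 325 exonic bases with genes on the opposite strand.

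Flies have 3 genes related to the bacterial small-subunit protein S18, and in human the counterpart of mRpS18A lies in the large subunit. Per kilobase, mRpS18A was at 91.4 ± 34.3 CPM in controls, mRpS18C at 66.8 ± 8.53 and mRpS18B at 42.4 ± 9.16. The control values of mRpS18C, 55.6 to 76.3, lay above those of mRpS18B, 33.9 to 55.3, while those of mRpS18A, 60.0 to 139.7, overlapped mRpS18C. Their log2 fold changes were -0.20, 0.06 and -0.06 for mRpS18A, mRpS18C and mRpS18B. Ribosomal proteins of the small subunit whose genes have other names were alike in this: tko, for the S12 protein, was at 106.9 ± 16.5 and 111.9 ± 38.6 CPM (0.07), and bonsai, for the S15 protein, at 5.79 ± 1.33 and 6.86 ± 2.39 CPM (0.25).

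The spread between libraries was mostly shared by the genes. Each gene's log2 CPM was set against its mean over the 8 libraries. For controls 1 to 4 the median deviations of the 72 genes stood at -0.20, 0.06, 0.34 and -0.17. For RNAi 1 to 4 they stood at 0.23, -0.85, 0.33 and 0.21. The SD within a genotype was 0.46 (log2) for the median gene. After the library's median was subtracted it was 0.18, and it was smaller than before for 64 of the 72 genes. The tightest was mRpS26, for the small subunit, at 0.06. The widest were mRpS30 (1.18), mRpL37 (0.99), mRpS9 (0.66) and mRpL36 (0.66). Of these, mRpL36 had the highest level per kilobase in controls and mRpL37 and mRpS30 the lowest.

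**Figure D4:**
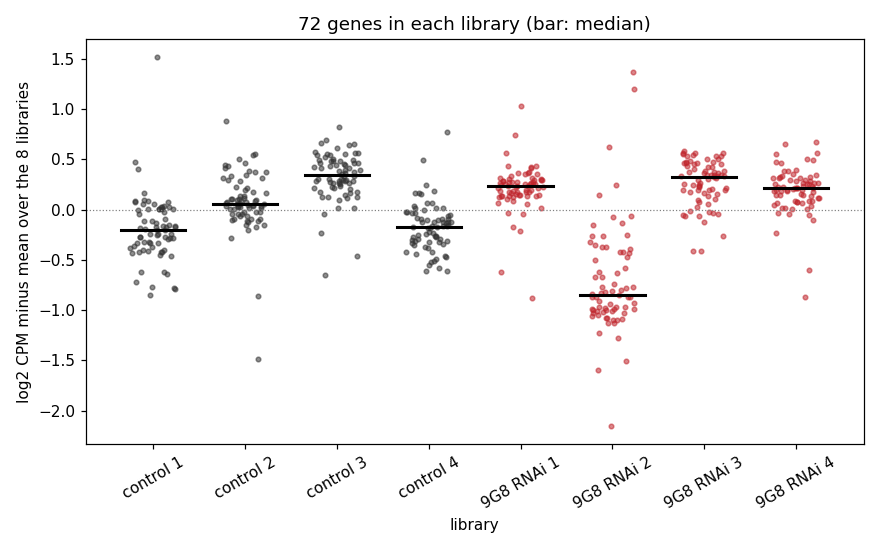
Deviation of each of the 72 genes from its own mean over the 8 libraries (log2 CPM), one point per gene, with a bar for the library median. Most genes of a library lie together, control 3 and RNAi 3 are highest and RNAi 2 is lowest, at -0.85.

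The summed level of the 73 genes was 3358, 3682, 4460 and 3125 CPM in controls 1 to 4 and 3847, 1904, 4175 and 3959 CPM in RNAi libraries 1 to 4. RNAi 2 was lowest, and the other RNAi libraries lay within the range of the controls. It held the lowest value of the 8 libraries for 54 of the 72 genes. This low place depended on the scaling. As a plain share of all counts the 73 genes made up 0.277%, 0.304%, 0.459% and 0.375% in controls 1 to 4, and 0.440%, 0.292%, 0.372% and 0.300% in RNAi 1 to 4. On that scale control 1 was lowest for 46 of the 72 genes and RNAi 2 for 17. The group means of the share were 0.354% ± 0.081 and 0.351% ± 0.069 (n = 4). The 2 libraries with the largest share, control 3 and RNAi 1, were also the highest in summed germline markers, at 803 and 701 CPM, and control 1, with the smallest share, was lowest at 25.9 CPM. The part of germline RNA in these levels was not tested. With the germline score as a covariate 0 of the 72 genes were called and their median log2 fold change was 0.01.

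In RNAi 2 the deviation also moved with gene length. There the 37 genes of up to 783 exonic bases had a median deviation of -0.98 and the 35 longer ones -0.50. The rank correlation of deviation with exonic length across the 72 genes was 0.71 in that library, and between -0.46 and 0.36 in the other libraries. Over all 9846 tested genes it was 0.58 in RNAi 2 and between -0.50 and 0.38 in the others. Across the 72 genes log2 fold change and length had a rho of 0.17, and -0.02 without RNAi 2. Between log2 fold change and mean CPM the rho across the 72 genes was -0.43, with higher estimates tending to fall on scarcer genes. The part of RNA quality or library preparation in these relations was not tested. Without RNAi 2 the median log2 fold change of the 72 genes was 0.17, with 0 called, where that of all tested genes was -0.06.

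**Figure D5:**
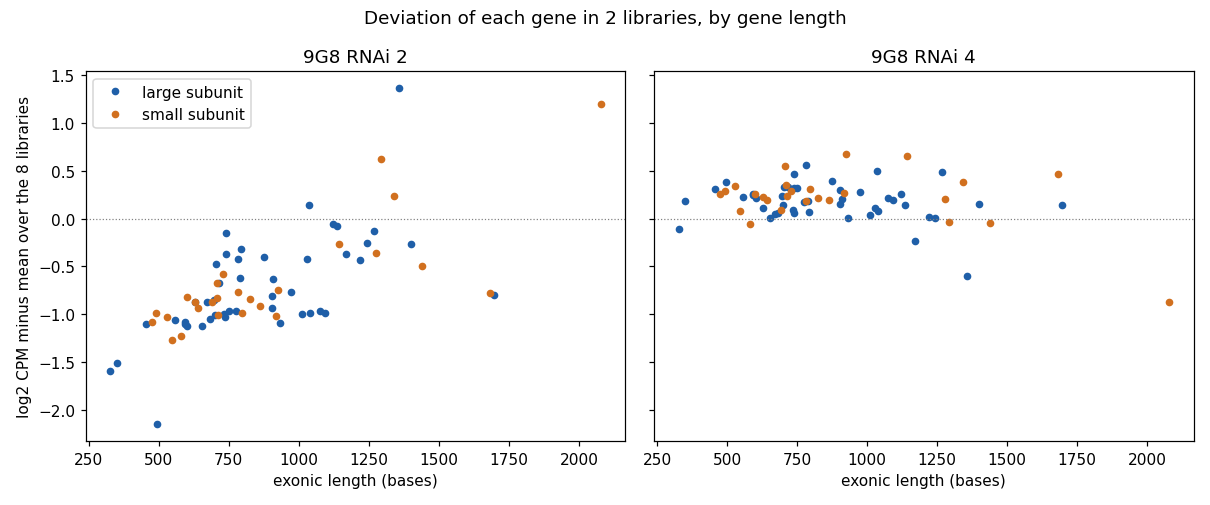
Deviation of each of the 72 genes from its mean over the 8 libraries (log2 CPM) against its exonic length in bases, in RNAi 2 (left) and RNAi 4 (right), coloured by the subunit in the gene's name. In RNAi 2 longer genes lie higher (rho 0.71), and in RNAi 4 there is little slope (rho -0.13).

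Other nuclear genes for mitochondrial gene expression did not pass either. Of 8 translation factor genes 0 were called (median log2 fold change 0.20), and EfTuM, for the elongation factor that brings tRNAs to the ribosome, was at 172.0 ± 59.6 and 186.2 ± 38.8 CPM. Of 16 genes for mitochondrial aminoacyl-tRNA synthetases, which charge the tRNAs, 0 were called (median 0.42, with 15 above 0). The most abundant, Aats-phe (PheRS-m), was at 26.0 ± 7.96 and 30.8 ± 9.64 CPM. Over all tested genes 5006 estimates were above 0 and 4840 below. Genes of a list share the same libraries, so counts of signs within a list are not independent observations of a direction. Of 16 tested genes for transcription, replication and RNA handling of the mitochondrial genome 0 were called (median 0.44). The most abundant was scu, a dehydrogenase that is also a subunit of the enzyme that trims tRNA ends (log2 fold change -0.19). Of 13 import and chaperone genes 0 were called (median 0.06), and Tim17b of the inner membrane translocase was at 0.06.

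Not all mitochondrial lists varied alike between libraries. The list for transcription, replication and RNA handling of the mitochondrial genome had its highest median deviation in RNAi 2 (0.59) and was at -0.24 in RNAi 4. Translation factor genes were at 0.10 in RNAi 2. The synthetase list varied most unlike the ribosomal protein genes there. Its median deviation was highest in RNAi 2 (0.84), where that of the ribosomal protein genes was lowest (-0.85), and lowest in RNAi 4 (-0.69). The lists of cytosolic ribosomal protein genes (-0.78), nuclear-encoded oxidative phosphorylation genes (-0.85) and mitochondrially encoded genes (-0.95) were at their lowest in RNAi 2 too.

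Mitochondrially encoded genes and nuclear genes for oxidative phosphorylation gave no calls either. Of 30 tested mitochondrially encoded genes, tRNA genes included, 0 were called (median log2 fold change 0.34). The cytochrome oxidase subunit gene mt:CoI was at 42120 ± 7750 and 53570 ± 22700 CPM (0.35, SE 0.41). Of 71 tested nuclear-encoded oxidative phosphorylation genes 0 were called (median -0.16, with 60 below 0), and the most abundant, CoVa of cytochrome oxidase, was at -0.21. These genes share the same libraries too, so the 60 are not independent observations. Of 87 tested cytosolic ribosomal protein genes and their paralogs 1 was called (median 0.12). It was RpL37b, which rose from 0.90 ± 0.24 to 10.1 ± 7.32 CPM (log2 fold change of 3.496 with an SE of 0.58, edgeR adjusted p = 0.00644). Its reads may be split uncertainly with its paralog RpL37a on X, and with the replicate block it did not pass (adjusted p = 0.0526).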

How the data were processed

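Each deposited file held raw counts of reads per gene for 1 library with no normalization, per the file headers in the featureCounts layout, with gene coordinates and exonic length. The submitters' processing notes name build BDGP6, featureCounts (Subread 1.5.2), STAR 2.5.2b and Trimmomatic 0.36. Not given in the sources used here are annotation release, strand setting and handling of multiply matching reads.

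Counts were tested in R 4.3.3 with edgeR 4.0.16 (filterByExpr by group, TMM, glmQLFit, glmQLFTest, no covariates) over all genes with Benjamini-Hochberg adjustment. Levels are CPM computed here. SEs and 95% intervals derive from the F statistic. Alternatives used limma 3.58.1 and DESeq2 1.42.0. The test was tested on simulated data. Whether replicates were reared apart is not labelled. The p-values then reflect only the spread of these libraries, possibly technical.

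The genes and lists were chosen with earlier results of these data known. Named genes were those with calls or with groups apart, the 4 largest and smallest log2 fold changes at a mean CPM of at least 5, the 4 highest and lowest levels per kilobase, and genes of listed roles. Outside the family they were x16, tko, bonsai and called or most abundant genes of each list. CG33155 was added after its values were seen. Some list names were not matched to the files (8 in all) and were left out.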

Additional observations from a re-analysis of the deposited data

Results flagged for a closer look

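Among 82 sets of 4 libraries, a library stood far from the other 3 of its genotype in 7, where chance flags about 1 in 20. The sets reuse the same libraries and some share genes, so they are not independent and the count was not tested against that rate. In controls this was control 1 for mRpL36 (395.4 CPM, next 202.6) and control 4 for mRpL2 (71.1 CPM, next 85.5). In RNAi it was RNAi 2 in each case: mRpS21 (29.9 CPM, next 74.4), mRpS31 (24.7 CPM, next 35.8), mRpS18B (18.4 CPM, next 39.6), the summed level of the 73 genes (1904 CPM, next 3847) and their median deviation (-0.849 on the log2 scale, next 0.21).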

How the results depend on the processing

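In all 20 alternatives 0 of the 72 genes were called in either direction, and the smallest adjusted p in an alternative was 0.0542 (mRpL36, without RNAi 4). Where neither fit called a named gene, 73 of 739 pairs of gene and setting had the opposite sign. Their median log2 fold change ran from -0.089 to 0.174 with a library left out. It was 0.346 without control 3 and RNAi 2 together, the cause of which was not tested. Scaling and filtering moved the median of all genes to at most 0.112, from 0.01, with that of the 72 genes then between 0.008 and 0.131. Over all genes 316 were called in the main comparison, 557 by DESeq2, 141 with the replicate block, 480 with the germline score as covariate, 146 with size factors from the 72 genes, 96 without control 3 and RNAi 2 together, and 162 to 504 with a library left out (198 without control 1, 187 without control 2, 162, 179 and 504 without RNAi 2, 3 and 4). The size factors from the 72 genes and the joint omission of 2 libraries were chosen after seeing the data. RpL37b did not pass with the replicate block (adjusted p = 0.0526 by edgeR). The labels give no pairing of libraries by number. Libraries with the same number did not deviate together (correlations -0.593 to -0.018). Pairs with different numbers were not set beside them, so these correlations do not settle whether a pairing exists. Each of the 72 genes had at least 44 counts in every library, and RpL37b had 23 to 29 in controls.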
